A study of Mus musculus with 6 samples.

Results

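The genes described here encode the nuclear subunits of the 5 oxidative phosphorylation complexes of mitochondria, cytochrome c, and a set of factors that assemble these complexes. Members were the rows of the deposited gene table whose symbol starts with Nduf, Sdha to Sdhd, Uqcr, Cox followed by a digit, or Atp5, or is Cyc1 or Cycs. This rule took 79 of 10580 listed genes: 30 of complex I, 4 of complex II, 7 of complex III, 15 of complex IV, 13 of complex V, 1 cytochrome c and 9 assembly factors. The rule reads gene symbols and no measured value.

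Fetal Leydig cells (FLCs) came from E18.5 testes and adult Leydig cells (ALCs) from testes of 100-day-old males, with 3 libraries in each group. All animals were XY mice heterozygous for the Nr5a1-GFP transgene, in which Nr5a1 sequence drives a green fluorescent protein. Fetuses were bred from outbred CD-1 females, and fetal cells of several sorting experiments were pooled to obtain enough RNA. Strongly fluorescent live single cells were sorted from both stages, and because Sertoli cells also express Nr5a1, the sort rests on the strength of the signal. By the authors' methods, ribosomal RNA was removed from total RNA before stranded libraries were made, and these were read as 50-base pairs. Their account of the results speaks of poly(A)+ RNA instead. The values used are the authors' mean over all 6 libraries, so each value below joins FLCs and ALCs, has no SD, and says nothing of a difference between the stages. With bulk RNA, more cells of a type and more RNA per cell cannot be told apart.

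Oxidative phosphorylation is the final stage of respiration. Complex I takes electrons from NADH and complex II takes them from succinate. Ubiquinone carries them to complex III, cytochrome c carries them on to complex IV, and there oxygen is reduced to water. Complexes I, III and IV pump protons across the inner mitochondrial membrane, and complex V, the ATP synthase, uses their return to make ATP. Leydig cells also need working mitochondria for steroid hormones, since the first enzyme of steroid synthesis sits in the inner membrane. Most complexes join subunits encoded in the nucleus with subunits encoded in mitochondrial DNA. The latter were not analysed here.

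The libraries carried the RNA of the labelled cell type. All 6 Leydig cell markers were listed, with means from 87502 normalized counts for Star to 283675 for Cyp17a1. A normalized count is a read count divided by the library's size factor. Of 18 markers of other cells that a testis holds (peritubular myoid, immune, endothelial, germ, Sertoli and progenitor cells), 9 were listed. All 9 spermatid genes were listed, from 23.0 for Cyct to 3191 for Prm2. The authors' table was cut at an adjusted p of 0.05 for the comparison of the stages, which all 10580 of its genes meet. Its rows are thus a filtered part of the transcriptome, and a gene without a row was not analysed here.

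A fixed list of 108 subunits and assembly factors with such symbols had 79 genes in the table. It held 30 of 36 for complex I, 4 of 4 for complex II, 7 of 9 for complex III, 15 of 20 for complex IV and 13 of 17 for complex V. Genes of the list not analysed here included Ndufs1 and Ndufs7 of the complex I core, Uqcrfs1 and Uqcrc2 of complex III, Cox7c of complex IV, and Atp5g2 and Atp5g3 of complex V. Assembly factors had 2 of 8 for complex I, 1 of 4 for complex II and 6 of 9 for complex IV. These are counts of genes that passed the authors' filter on the comparison of the stages. The share of all compared genes that passed it was not used here, so nothing is read from them.

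The start regions of these genes are shown first, because they are the sequence the members were searched for in common. Of 79 members, 63 had a promoter in RefSeq on GRCm38.p6, taken as 250 bases before and 50 after the first start listed. The other 16 included Atp5a1, Atp5f1, Cox17, Cox18, Cox4i1, Cox6a2, Cox6c, Cox8c, Cyc1, Ndufa2, Ndufa4l2, Ndufb9, Sdhc, Uqcrb and Uqcrq. Exact words were searched on both strands. Sites are numbered from 1 at the start base, and bases before it are negative.

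The word GCATGCGC, the core of the site of nuclear respiratory factor 1 (NRF1), a regulator known for respiratory chain genes, was in 10 of 63 member promoters. That is 15.9%, with a 95% Wilson interval of 8.86 to 26.8%. It stood beside 4.77% of 7928 listed genes and 2.81% of 27025 genes in all. The 10 genes were Cycs, Sdhb, Uqcrc1, Uqcr11, Ndufa6, Ndufa8, Ndufa11, Cox6a1, Atp5k and Atp5l, so every complex had at least 1. In Atp5k, Cox6a1, Ndufa11 and Uqcrc1 the word lay on both strands in overlapping copies. These windows from the gene's own strand are shown because the word is identical while the bases around it differ. The word is in capitals:
Cycs, chr6:50566612-50566639, minus strand: atgctagctcGCATGCGCgcgcacaaac
Sdhb, chr4:140961207-140961234, plus strand: agcccagtggGCATGCGCcctacgggcc
Ndufa8, chr2:36049329-36049356, minus strand: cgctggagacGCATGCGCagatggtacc
Cox6a1, chr5:115349101-115349128, minus strand: ggaacggggcGCATGCGCgctctcgctc
Uqcrc1, chr9:108936670-108936697, plus strand: tccgctctgcGCATGCGCagcgcggctc
Site positions ran from -240 in Atp5l to 33 in Uqcrc1, and the Cycs and Sdhb sites began at -60 and -54.

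The word CCGGAAG, read by ETS factors such as the GA-binding protein, was in 19 of 63 member promoters. The share was 30.2%, with an interval of 20.2 to 42.4%, beside 14.3% of listed genes and 9.12% of all genes. All 5 complexes and the assembly factors had it, with 4 genes each in complex I, complex V and the assembly factors, 3 in complex IV and 2 each in complexes II and III. Atp5l, Cox8a and Ndufs3 held it at a pair of places. An Sp word overlapped an ETS word in Ndufs3. The antisense form reads CTTCCGG, as in the windows of Uqcrh and Cox8a below:
Sdhb, chr4:140961267-140961293, plus strand: ctcggagaaaCCGGAAGcggccttcca
Uqcrh, chr4:116075064-116075090, minus strand: gtatgccgcaCTTCCGGccaggtcgcc
Cox8a, chr19:7217605-7217631, minus strand: ttccgaaataCTTCCGGctcgggcgtc
Sdhb thus carried the NRF1 word and the ETS word within 300 bases, as did Atp5k, Atp5l, Cox6a1 and Uqcr11.

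The word AAGATGGC, the core of the YY1 site, was in 7 of 63 member promoters. The share was 11.1%, with an interval of 5.49 to 21.2%, beside 3.72% of listed genes and 2.88% of all genes. All 7 sites were on the gene's own strand and began 22 to 39 bases after the start, while no member held the word in the 250 bases before it. The word itself holds the letters ATG, with which a coding sequence begins. Whether these sites are the first coding bases of the genes was not tested, and the shares are not matched for the place of the coding start. Of these genes 5 were complex I subunits (Ndufa3, Ndufa9, Ndufb8, Ndufs4, Ndufs6), 1 was Atp5j2 of complex V and 1 was Cox10, which makes the heme of complex IV. The shared place and strand can be read from these windows:
Cox10, chr11:64079434-64079461, minus strand: gcgggctagcAAGATGGCggcgcccagg
Ndufa9, chr6:126849098-126849125, minus strand: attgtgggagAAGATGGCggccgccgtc
Ndufs4, chr13:114388045-114388069, minus strand: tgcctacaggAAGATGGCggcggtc
Atp5j2, chr5:145191501-145191528, minus strand: ccaggacttcAAGATGGCgtcactcggt

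The Sp word GGGCGG was in 44.4% of member promoters, beside 60.2% of listed genes and 35.9% of all genes. A TATA box word, TATAAA, was in 9.52% of member promoters, beside 7.56% of listed and 14.2% of all genes. The word TCAAGGTCA of estrogen-related receptors was in 1 member, Sdhd. That is 1.59% of member promoters, with an interval of 0.28 to 8.46%, beside 0.29% of listed and 0.41% of all genes. At least 1 of the NRF1, ETS and YY1 words was in 30 of 63 member promoters, or 47.6%, beside 20.9% of listed genes. A match of letters is a description of these windows and does not show that a factor binds there. Levels of members with and without a word overlapped. Members with the NRF1 word ranged from 20.4 to 25925 normalized counts per kb and those without it from 42.1 to 11704. Members with the YY1 word ranged from 299.2 to 1615 and those without it from 20.4 to 25925.

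**Figure D1:**
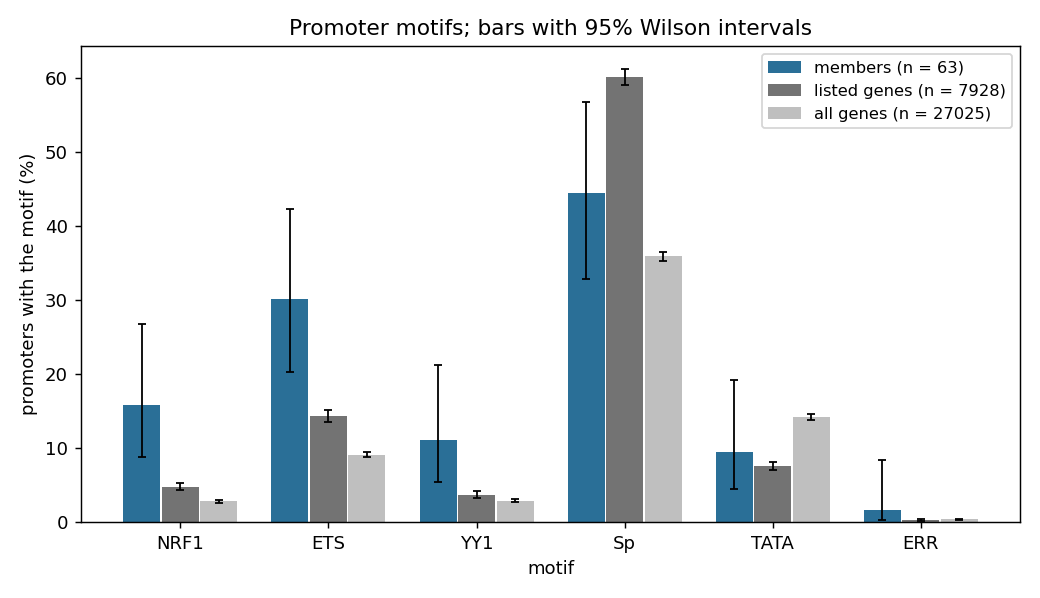
Share of promoters (vertical axis, %) that hold each of 6 exact words on either strand, for 63 members, 7928 listed genes and 27025 genes in all. Error bars are 95% Wilson intervals of the share, and the members' bars stand above both others for NRF1, ETS and YY1, at 15.9, 30.2 and 11.1%. The members' bar for the estrogen-related receptor word (ERR), 1.59%, also stands above both but rests on 1 gene.

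Levels are given per kb of exon, so that genes of different length can be set side by side. A level is the mean normalized count divided by the summed exon length of the gene in GENCODE vM21 on GRCm38. The authors counted on another GENCODE version, so the length behind a count may differ for some genes. Over the 10223 listed genes with a gene model, the median level was 148.4 per kb, the middle 50% lay between 32.2 and 428.5, and the top 10% began at 1052. The 79 members had a median level of 1612 per kb, at the 94.0th percentile of listed genes. Of these, 74 were above the median of listed genes and 51 were in the top 10%. Members took 1.39% of the summed mean counts of listed genes, and 3.17% of the summed levels per kb. Differences between genes here have no replicate error, so no test was made and the complexes are set side by side as a description.

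**Figure D2:**
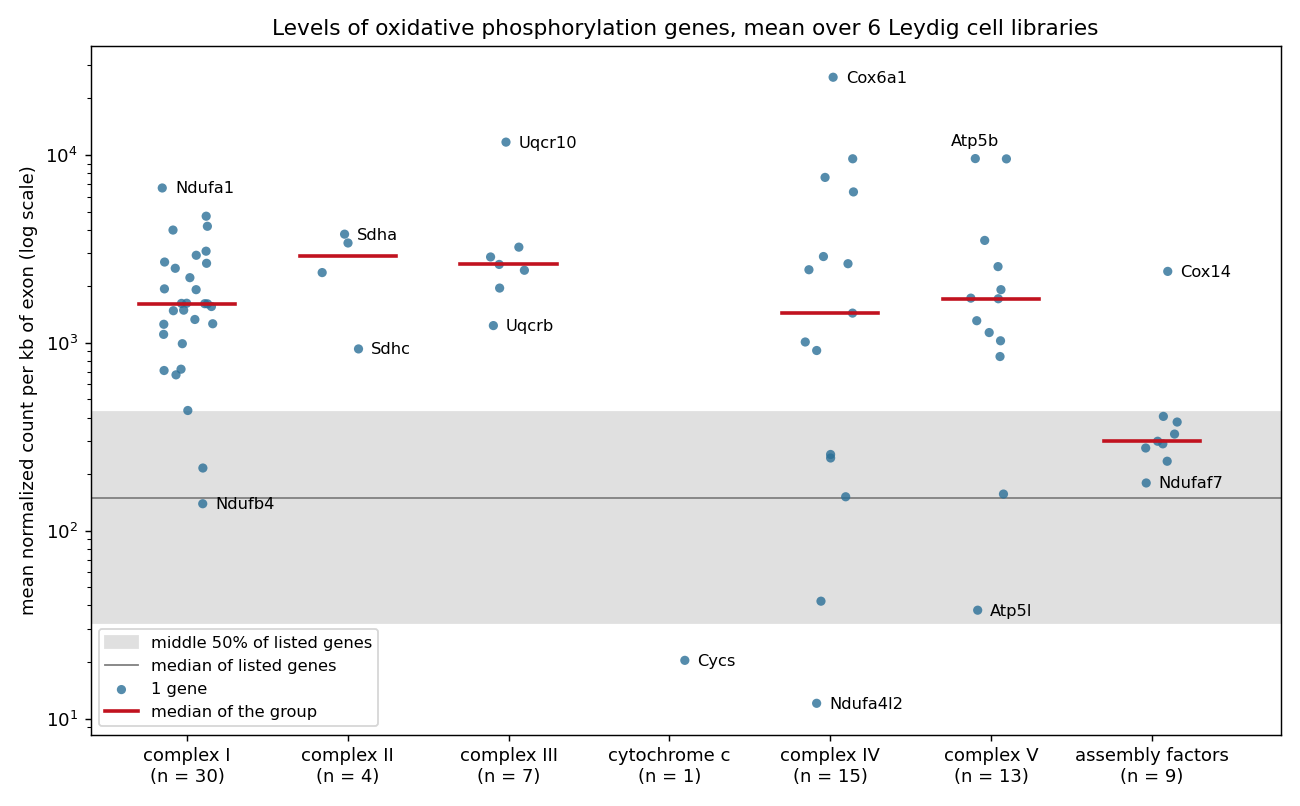
Level of each of 79 members (vertical axis, mean normalized count per kb of exon over 6 libraries, log scale) by complex. Points are genes, red lines are group medians, and the grey band holds the middle 50% of listed genes with their median as a line. The medians of complexes I to V lie between 1439 and 2882 per kb, above the band, while that of assembly factors, 299.2, lies inside it.

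Complex I, the NADH dehydrogenase, is the largest complex and had 30 members. Its median level was 1613 per kb, and 23 of 30 genes were in the top 10% of listed genes. The 5 core subunits, which form the conserved centre of the enzyme and have counterparts in bacteria, had a median of 1621 per kb, and all were in the top 10%. Ndufv1, which binds NADH and the flavin, stood at 1621 per kb. Its partner Ndufv2 was at 1255. Ndufs8, which carries iron-sulfur clusters on the path to ubiquinone, and Ndufs3, of the same arm, stood at 2493 and 1331.

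The 25 accessory subunits of complex I, which surround the core and are needed for its stability, had nearly the same median, 1612 per kb, but a range of 48.0-fold. The lowest was Ndufb4 at 139.1 per kb and the highest Ndufa1 at 6671. Ndufb11 (4720), Ndufb9 (4172) and Ndufa2 (3983) followed Ndufa1. Above Ndufb4 stood Ndufb2 at 215.5 and Ndufb7 at 436.2, but by mean count and per kb of coding sequence Ndufs5 was the next above Ndufb4, with 580.7 normalized counts. Per kb of coding sequence Ndufb2 was at the 90.7th percentile and Ndufb7 at the 92.7th. The 8 matrix arm subunits had a median of 1378 and the 17 membrane arm subunits one of 1624. Ndufs4, a matrix arm subunit whose loss is a known cause of complex I deficiency, was at 712.1 per kb, the lowest of its arm on this scale. Ndufa12 was close above it at 723.7. By mean count Ndufs6 was the lowest of the arm, at 995.7 beside 1928 for Ndufs4. Per kb of coding sequence it was Ndufa12, at 2540 beside 3673.

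Complex II, succinate dehydrogenase, is also an enzyme of the citric acid cycle and has no subunit encoded in mitochondrial DNA. All 4 subunits were listed. The flavin subunit Sdha stood at 3787 per kb and the iron-sulfur subunit Sdhb at 2365. Of the membrane anchors, Sdhd stood at 3399 and Sdhc at 927.7. The median, 2882 per kb, was at the 97.1st percentile, and the highest level was 4.08 times the lowest.

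Complex III, which passes electrons from ubiquinol to cytochrome c, had 7 members, and all were in the top 10% of listed genes. Cyc1, the heme protein cytochrome c1, was at 2433 per kb and the core protein Uqcrc1 at 1956. The small subunits ranged from 1235 for Uqcrb to 11704 for Uqcr10. Uqcrq, Uqcrh and Uqcr11 lay between them at 2613, 2864 and 3230. The level of Uqcr10 was 55th among 10223 genes.

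By the row of its own gene, cytochrome c stood apart from the complexes it joins. Cycs, the form made in most tissues, had a mean of 69.4 normalized counts, or 20.4 per kb, at the 19.5th percentile of listed genes. Cyc1, its electron donor in complex III, had 5241 normalized counts. The testis form Cyct, which is made in male germ cells and lies outside the rule, had 23.0 normalized counts. Per kb the order was the other way, with Cyct at 35.1 and Cycs at 20.4, so which form was higher depends on the scale. A further locus with the whole coding sequence of Cycs, Gm10053, is described below with the copies. Reads from inside that sequence cannot be assigned to either locus. With no length scaling Cycs alone was at the 19.3rd percentile, and the summed count of both loci would lie at the 52.9th.

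Complex IV, cytochrome c oxidase, had 15 members and the widest range of the 5 complexes. Its median was 1439 per kb, and the highest level was 2152 times the lowest. Cox6a1 was highest among all 79 members at 25925 per kb, 23rd among listed genes. Cox8a (9542), Cox6b1 (7594) and Cox4i1 (6356) came next. The 10 forms made in most tissues had a median of 2758 per kb and a lowest level of 909.9, for Cox5b. Within these 10 the highest level was 28.5 times the lowest, less than the 48.0 of complex I and the 253.6 of complex V. The other 5, from Cox7a1 at 254.4 per kb down to Ndufa4l2 at 12.1, each have a more widely made relative among the members.

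Subunits of complex IV come as forms that replace each other between tissues, and in each pair that had rows the form made in most tissues was the higher. Cox6a1, the liver form, was 106 times its heart and muscle form Cox6a2 (243.7 per kb). Cox7a2 at 2879 per kb was 11.3 times the heart and muscle form Cox7a1 at 254.4. Cox7b at 2637 was 62.6 times Cox7b2 at 42.1. Cox8a was 63.0 times Cox8c at 151.5 per kb. Ndufa4, a subunit of complex IV that was first assigned to complex I, stood at 2449 per kb, 203 times Ndufa4l2, a related protein known from low oxygen. Ndufa4l2 had the lowest level of all members, 12.1 per kb and 13.2 normalized counts. The order within these 5 pairs was the same per kb of exon, per kb of coding sequence and with no length scaling.

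Cox7b2 and Cox8c are known from testis, and their means were 22.8 and 69.4 normalized counts. RNA of spermatid genes was part of the same pooled mean. The 9 spermatid genes had a median of 1006 normalized counts, with Prm2 at 3191 and Tnp2 at 1297. A mean over all 6 libraries does not show which libraries carried this RNA. Of the earlier germ cell markers Ddx4 was at 184.2, while Dazl and Pou5f1 had no row. The part of germ cell RNA in the levels of Cox7b2, Cox8c and Cyct was not tested.

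Complex V had 13 members with a median of 1716 per kb. The F1 head, where ATP is made, held its highest levels. The catalytic subunit Atp5b stood at 9565 per kb and Atp5a1, with which it alternates around the head, at 9531. By mean count these were the highest of all members, at 40527 and 29878, and with Cox6a1 at 18199 and Sdha at 15627 they were the first 4 of the members, followed by Cox4i1 at 9853. Of the central stalk, Atp5c1 was at 3508 per kb, Atp5d at 2545 and Atp5e at 1311. The ratio of these levels is a ratio of RNA and not of the subunits in the enzyme.

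The outer stalk genes Atp5j, Atp5o, Atp5f1 and Atp5h ran from 1729 down to 845.2 per kb. Of the small membrane subunits, Atp5k was at 1918 and Atp5j2 at 1025, while Atp5l was at 37.7, the lowest of the complex. Atp5g1, 1 of 3 genes for the same ring protein, stood at 156.6. The other ring genes, Atp5g2 and Atp5g3, were not analysed here. The highest level in complex V was 253.6 times the lowest, but 32.5 times per kb of coding sequence, and all coding words of the lowest, Atp5l, are also found in other genes.

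Assembly factors bring the subunits together or insert their cofactors and are not part of the finished enzyme. The 9 members had a median of 299.2 per kb, at the 66.8th percentile, and all were above the median of listed genes. Only 1, Cox14, was in the top 10%, at 2400 per kb. With no length scaling it was at the 72.5th percentile, and per kb of coding sequence Cox17 was in the top 10% as well, at the 97.2nd. Cox14 takes part in the first steps of making the complex IV core. The other complex IV factors ranged from 275.4 for Cox16 to 405.8 for Cox18, which helps place a core subunit in the membrane. Cox10, Cox11 and Cox17, which supply heme and copper, stood at 299.2, 289.8 and 326.7. Ndufaf3 and Ndufaf7 of complex I were at 378.6 and 179.4, and Sdhaf1 of complex II at 234.2.

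A fixed list of 32 assembly genes with other symbols had 16 with rows, and their median was 249.0 per kb. The highest were Uqcc3 at 1206, Surf1 at 1054 and Uqcc2 at 924.7, and the lowest Coa4 at 64.6. The median of assembly factors was thus lower than that of every complex, both for the members and for the genes of other names. Without length scaling the assembly factors' median was at the 56.4th percentile and those of the complexes between the 79.4th and the 91.6th.

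Some low levels went with coding sequence that other genes also carry. Because the libraries were read in 50 bases, the coding sequence of each member was cut into all its words of 50 bases and each was looked up, on both strands, in all transcripts of other genes. A word that occurs elsewhere on the same strand cannot by itself place a read. In 39 of 79 members no word was shared, and in 15 at least 50% were shared. The latter is 19.0% of members, beside 6.51% of 10158 listed genes. All words were shared in Cycs, Atp5l, Ndufb4, Cox17 and Sdhaf1, and 99.7% in Atp5g1.

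The lowest gene of complex I (Ndufb4), both low genes of complex V (Atp5l and Atp5g1) and cytochrome c were thus among the 6 members with the most shared coding words. Levels rest on all exons, and over the whole coding transcript, untranslated ends included, the order differed. There 37.0% of words were shared in Ndufb4, 84.85% in Atp5l, 11.6% in Atp5g1 and 28.5% in Cycs, beside 88.7% in Cox16. The 12 subunits and cytochrome c at or above 50% had levels from 20.4 to 1439 with a median of 699.5 per kb. The 58 below it had a median of 2089, and ranged from 12.1 to 25925. Among listed genes the order was the other way per kb, with medians of 209.2 at or above 50% and 144.3 below, but the same as in the members by mean count, with 615.8 and 705.9. Across the 79 members the Spearman correlation of level per kb with the shared share was -0.31, and across listed genes 0.08. For the members it was -0.25 by mean count and -0.18 per kb of coding sequence. These are correlations across genes of 1 set of libraries and carry no test. How the authors' counting treated reads with several places was not given in the sources used here, and its part in these levels was not tested.

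**Figure D3:**
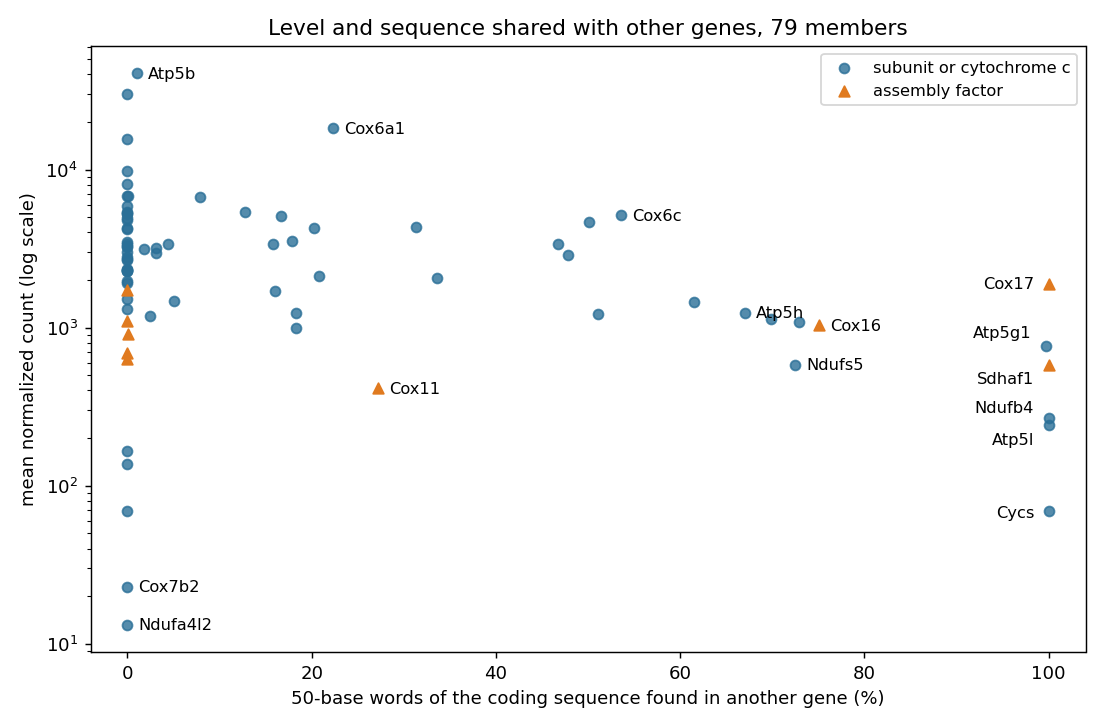
Mean normalized count over 6 libraries (vertical axis, log scale) against the share of 50-base words of the coding sequence found in another gene (horizontal axis, %), 1 point per member. The 6 members at 99.7% or more reach 1886 at most, while members with little shared sequence run from 13.2 to 40527.

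Most copies at other loci were processed pseudogenes, which arise when a spliced RNA is copied back into the genome. Gene models within 100000 bases of a member were not counted as copies. At other loci, 22 members had 39 copies that shared at least 10% of the coding words, and 37 of these were processed pseudogenes in the annotation. Atp5l had 9 such copies and Cycs 6. Only 5 copies had a row in the table, for 4 members, and these non-members were chosen for naming after their values were seen. Among these 5, Gm10053 and Gm11273 are protein-coding genes in the annotation. In 3 of the 5 the copy had more normalized counts than the member.

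Gm10053, at chr19:24875686-24876631, shared 100% of the coding words of Cycs (chr6:50562563-50566538). It had a mean of 706.3 normalized counts, 10.2 times the 69.4 of Cycs. Added together they came to 775.7, of which 91.1% were in Gm10053. All 315 coding bases of Cycs matched Gm10053, so no read from inside the coding sequence alone can tell the loci apart. Gm10108 on chromosome 5 differed at 2 of 315 bases and had 15.1 normalized counts. The first 30 coding bases are shown for the 3 loci, with the base that differs between Cycs and Gm10108 in capitals in the Gm10108 line:
Cycs: atgggtgatgttgaaaaaggcaagaagatt
Gm10053: atgggtgatgttgaaaaaggcaagaagatt
Gm10108: atgAgtgatgttgaaaaaggcaagaagatt

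Gm10221, at chr5:24581554-24581862, matched all 309 coding bases of Atp5l. It had 657.5 normalized counts and Atp5l 243.1, a ratio of 2.71. The first 30 bases of both show the identity:
Atp5l: atggccaagttcatccgtaacttcgcggag
Gm10221: atggccaagttcatccgtaacttcgcggag
Gm10250, at chr15:5120654-5121135, shared 67.1% of the coding words of Atp5h, a stalk subunit. It had 2689 normalized counts and Atp5h 1238, a ratio of 2.17. Gm11273, at chr13:21501029-21501418, shared 61.5% of the words of Cox5b and had 1018 normalized counts, below the 1444 of Cox5b. Only 3 of 387 coding bases of Cox5b differed, and the first of them is in capitals here:
Cox5b, coding bases 99 to 128: tggaggtggtgtcccCactgatgaggagca
Gm11273: tggaggtggtgtcccTactgatgaggagca
Ndufb4, whose words were all found in Ndufb4c on chromosome 15, and Atp5g1, with 93.3% of its words in Gm10039 on chromosome 11, had copies that were not analysed here.

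**Figure D4:**
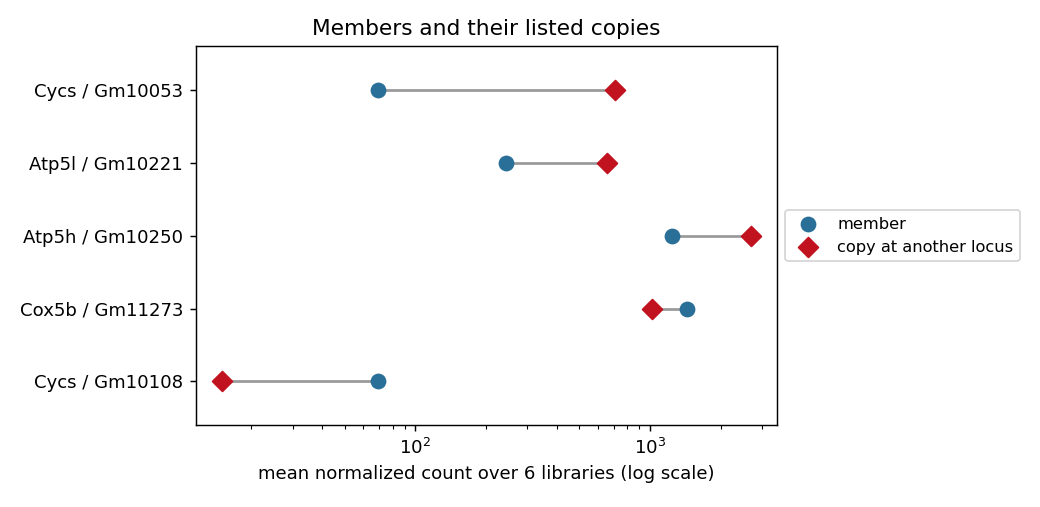
Mean normalized count over 6 libraries (horizontal axis, log scale) of 4 members (circles) and of their 5 listed copies at other loci (diamonds), 1 line per pair. The copy lies to the right of the member for Cycs with Gm10053, Atp5l with Gm10221 and Atp5h with Gm10250.

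For assembly factors the sharing was with gene models at the same locus. The words of Cox17 were all found in Gm21987 and 75.1% of those of Cox16 in Gm20498, which are protein-coding models that overlap these genes and extend beyond them. Gm20498 had 1002 normalized counts beside 1033 for Cox16, and Gm21987 had 1478 beside 1886 for Cox17. Over the whole transcript, untranslated ends included, Gm20498 held 88.7% of the words of Cox16 but Gm21987 only 5.71% of those of Cox17. Reads from the shared words cannot be told apart. This leaves the level of Cox16 uncertain, and that of Cox17 for reads from its coding part. All words of Sdhaf1 were found in E130208F15Rik at the same place on chromosome 7 but on the other strand, a protein-coding model with 305.7 normalized counts beside 583.2 for Sdhaf1. Stranded reads can tell these apart where strand is used in counting, and whether it was is not given in the sources used here. Atp5o has another gene model under the same name on chromosome 16, so its row may stand for either. These models were named after their values were seen.

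The members share traits of their genes that the rule did not use. Their median coding length was 387 bases, beside 1419 in 10158 listed protein-coding genes, and their median number of exons was 4, beside 9. Proteins under 100 residues were encoded by 22 of 79 members, or 27.8%, beside 1.99% of listed genes. Members on the X chromosome were Ndufa1, Ndufb11 and Cox7b, which is 3.80% of members, beside 3.74% of listed genes.

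A protein-coding gene on the other strand started within 1000 bases upstream of 19 members, or 24.1%, beside 8.30% of listed genes. The closest was Rps28, a ribosomal protein gene, 10 bases from Ndufa7. Tatdn1 started 18 bases from Ndufb9 and Ccdc127 29 bases from Sdha. Timm8b, of the mitochondrial protein import machinery, started 98 bases from Sdhd, with 1063 normalized counts beside 4184 for Sdhd. Of complex I, 7 genes had such a neighbour, and the pairs also took in 3 of 4 genes of complex II and 3 of 7 of complex III. These neighbours were named after the distances were seen.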

How the data were processed

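RNA of 3 FLC and 3 ALC libraries was sequenced by the authors, whose steps were demultiplexing in Casava (version 1.8.2), mapping in GemTools, gene counts on a GENCODE annotation of GRCm38 and a DESeq2 comparison of the stages. The deposited signal is the authors' mean, over FLC and ALC libraries together, of counts scaled by size factors, and is not scaled by gene length. The table also holds the authors' own fold changes, standard errors, test statistics and p-values, which were not used here. The deposited adjusted p-value column was read only to count that 10580 of 10580 genes lie below 0.05. Depth per library was not used here, so no value has an interval for depth, and no test was made between groups. Wilson intervals of motif shares cover counting error only.

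Gene models, exon lengths and coding sequences came from GENCODE vM21 (GRCm38), matched by symbol for 10223 genes, and promoters from RefSeq (GRCm38.p6). Python 3.11.15 with pandas 2.3.3, numpy 2.4.6, statsmodels 0.14.6 and matplotlib 3.10.9 was used, and the word search and percentiles were checked on simulated data. Every member could be named, with the highest and lowest per complex always given, and other genes only from fixed lists unless said otherwise. The members and lists were chosen with earlier results of these data known. Alternatives were no length scaling, coding length, filters at a mean of 10 or 100 normalized counts, leaving out paralog families or members with shared coding words, and a promoter window of 250 bases. Values of 1 subunit and 1 cell type marker are not reported here.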

Additional observations from a re-analysis of the deposited data

How the results depend on the processing

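The values have no replicate error, so an alternative is described by how far it moved a value. Scaling per residue was run on GENCODE coding length, an alternative chosen after seeing the data, as was leaving out members with shared coding words. The medians of complexes I, II, III, IV and V and of assembly factors were at percentiles 94.0, 97.1, 96.8, 93.0, 94.5 and 66.8. With no length scaling they were at 79.4, 91.4, 91.6, 82.7, 86.7 and 56.4, per coding length at 91.6, 95.7, 97.9, 97.5, 96.0 and 72.7, and with genes at a mean of at least 100 at 92.2, 96.3, 95.8, 95.7, 92.8 and 56.9. With a mean of at least 10 the assembly factors were at 65.2. With paralog families left out complex IV was at 89.5. With members of shared coding words left out complexes IV and V and assembly factors were at 96.5, 95.1 and 69.7.

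The highest level over the lowest, with no length scaling, was 25.4 in complex I, 1380 in complex IV, 167 in complex V and 4.57 in assembly factors. Per coding length it was 19.3, 1.48 in complex II, 1072, 32.5 and 21.1. On the log2 scale Cox7a2 over Cox7a1 was 3.50, and 4.32 and 4.42 with no scaling and coding length, and Cox7b over Cox7b2 was 5.97, 7.13 and 7.17. Cyct over Cycs reversed from 0.78 to -1.59 under both, which follows from their exon lengths. In the 250 bases before the start alone, the YY1 and estrogen-related receptor words were in 0 members. The cause of the other moves was not tested. No paired analysis was possible because only a mean over all libraries was used.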

Other observations

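Fixed lists of genes that work beside the complexes differed in median level, while their ranges overlapped. Of 9 fixed genes for the ATPase inhibitor and the carriers and channels that move ADP, ATP and phosphate across the mitochondrial membranes, 8 had rows, with a median of 2936 normalized counts per kb at the 97.2nd percentile of listed genes. The ADP/ATP carrier Slc25a5 stood at 7026 per kb, the phosphate carrier Slc25a3 at 4756, the channel Vdac1 at 3760 and the inhibitor Atpif1 at 3374. Slc25a4, the carrier form of heart and muscle, was at 2498. The channels Vdac2 and Vdac3 were lower, at 814.5 and 359.3. Slc25a31, the carrier form of male germ cells, was at 5.19 per kb and 11.1 normalized counts, the lowest of the list.

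The median of regulators of mitochondrial genes was lower. Of 14 fixed genes 9 had rows, with a median of 187.9 per kb at the 55.5th percentile. Gabpa, of the ETS family, was at 334.0 per kb, Yy1 at 281.8 and Nrf1 had 812.4 normalized counts and a lower level than both. The coactivators Ppargc1a and Ppargc1b were at 4.79 and 10.5 per kb, below the 32.2 at which the middle 50% of listed genes began, while the related Pprc1 was at 212.6.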
